A study of Mus musculus with 14 samples.

Results

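Interleukin-10 (IL-10), the 2 chains of its receptor and a set of genes that IL-10 is known to induce through the transcription factor STAT3 were followed across 3 genotypes of colonic macrophages. The set holds 10 genes chosen by symbol from knowledge of the pathway: the ligand *Il10*, the receptor chains *Il10ra* and *Il10rb*, *Stat3*, and the induced genes *Socs3*, *Bcl3*, *Nfil3*, *Sbno2*, *Etv3* and *Il4ra*. All 10 were found among the 24982 listed genes, and all 10 passed the filter on low counts that left 13136 genes to test. Lamina propria macrophages were sorted from colon and cecum of 5-week-old C57BL/6 mice, and each library came from a single mouse. Every mouse carried *Cdcs1*, a locus that makes the strain susceptible to colitis. WT mice carried *Cdcs1* and no listed knockout (4 mice compared, 1 further mouse shown only), IL10RAKO mice were also *Il10ra* -/- (4 mice), DKO mice were *Il10ra* -/- and *Ccr2* -/- (4 mice), and 1 CCR2KO mouse was *Ccr2* -/- alone. The knockouts were germline, so IL-10 receptor alpha and CCR2 were missing from every cell of the animal and not from macrophages alone. The paper reports spontaneous colitis at about this age in *Il10ra* -/- mice, less severe when *Ccr2* was missing too. Its wild-type and *Ccr2* -/- mice showed no histological colitis. The part of inflammation in the differences from WT below was not tested.

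IL-10 binds IL10RA, which then pairs with IL10RB, and the Janus kinases JAK1 and TYK2 bound to these chains phosphorylate STAT3. STAT3 enters the nucleus and induces both feedback inhibitors of cytokine signalling and repressors of inflammatory genes, which is how intestinal macrophages stay quiet towards gut bacteria. STAT3 is also used by other cytokines, among them IL-6, oncostatin M and granulocyte colony-stimulating factor, so its targets are not reached by IL-10 alone.

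Between 13085287 and 21216468 reads per mouse were counted on genes in the 12 compared libraries, so that 3 reads, taken as the smallest count that the depth can show, correspond to 0.124 to 0.211 CPM (the standard normalisation of a count to library size, here with the TMM factor of each library). All 8 macrophage markers were present, and their summed level was 5582 to 7330 CPM in WT, 4807 to 7246 CPM in IL10RAKO and 4178 to 7793 CPM in DKO mice. Other cell types were not absent from the sort. Summed over 6 fibroblast markers, the level was 294.2 to 577.1 CPM in WT, 14.99 to 53.7 CPM in IL10RAKO and 16.1 to 67.0 CPM in DKO mice, and 6 of 6 were lower in both knockout groups (edgeR, adjusted p under 0.05). Over 4 monocyte markers the summed level was 121.5 to 184.6 CPM in WT, 366.8 to 1047 CPM in IL10RAKO and 430.6 to 698 CPM in DKO mice, and 2 of 4 were higher in both. Over 7 neutrophil markers it was 1.67 to 7.92 CPM in WT, 5.26 to 94.2 CPM in IL10RAKO and 25.5 to 48.1 CPM in DKO mice, and 3 of the 4 tested were higher in both, with *S100a9*, *Mpo* and *Elane* at 0 in all 4 WT mice. Dendritic cell markers summed to 309.4 to 1402 CPM in WT, 1540 to 1924 CPM in IL10RAKO and 1023 to 1821 CPM in DKO mice (of 6 tested, 2 higher in IL10RAKO, and 1 higher and 1 lower in DKO), and mast cell markers to 10.6 to 32.7, 70.3 to 96.7 and 75.4 to 120.3 CPM (1 of 2 tested higher in each). Of 6 T cell markers 1 was lower in each knockout group, of 4 endothelial markers 1 was lower in IL10RAKO and 2 in DKO, and of the 8 macrophage markers 1 was higher in each and 2 were lower in DKO. No tested marker of NK cells, B and plasma cells or epithelial cells passed against WT. B and plasma cell markers were nevertheless present, summing to 505.9 to 1793 CPM in WT, 386.1 to 1053 CPM in IL10RAKO and 469 to 1832 CPM in DKO mice. In bulk libraries fewer cells of a type and less RNA per cell cannot be told apart. Since these markers moved with genotype, they accompany every difference from WT below, and their part in those differences was not tested, apart from the fit with a fibroblast covariate given at the end.

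*Il10ra*, the ligand-binding chain (ENSMUSG00000032089.16, GRCm38 chromosome 9, 45253837 to 45269149, minus strand), was measured at 379.6, 217.0, 251.1 and 290.1 CPM in WT mice 4, 5, 10 and 13. It was at 7.03, 6.54, 11.2 and 4.89 CPM in IL10RAKO mice 1, 2, 7 and 8, and at 6.63, 3.61, 7.59 and 3.41 CPM in DKO mice 3, 9, 12 and 14. Every knockout mouse was below every WT mouse, and none was at 0, with 58 to 221 reads left on the gene in each. *Il10ra* was 38.2-fold lower in IL10RAKO than in WT (log2 fold change -5.26, SE 0.341, edgeR adjusted p = 4.49e-07) and 53.8-fold lower in DKO than in WT (log2 fold change -5.75, SE 0.350, edgeR adjusted p = 1.71e-07). No library went against its label. Counts are per gene, so which exons these reads came from is not known. *Ccr2*, the gene deleted in addition in DKO mice, was at 513.7 to 702.1 CPM in WT, 361 to 627.2 CPM in IL10RAKO and 3.92 to 6.68 CPM in DKO mice.

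*Il10rb* (ENSMUSG00000022969.13, chromosome 16, 91406164 to 91425834, plus strand), the chain shared with the receptors of IL-22 and other cytokines of the family, was measured at 142.9, 165.1, 175.2 and 176.5 CPM in WT mice. IL10RAKO mice had 168.0, 140.5, 135.4 and 186.7 CPM, and DKO mice had 142.5, 151.6, 129.6 and 171.9 CPM. The 3 groups overlapped. The log2 fold change was -0.07 in IL10RAKO (95% interval -0.39 to 0.26, edgeR adjusted p = 0.816) and -0.15 in DKO (95% interval -0.47 to 0.18, edgeR adjusted p = 0.547) against WT. Its biological coefficient of variation, the spread between mice of one genotype, was 0.169 and lower than that of all but 3.07% of the tested genes. The annotation places the protein-coding gene *Gm21970* over *Il10rb* on the same strand, so reads shared by both are uncertain. Per kilobase of exon, *Il10ra* was 1.43 to 2.89 times as high as *Il10rb* in WT mice, 0.0285 to 0.0899 times in IL10RAKO mice and 0.0216 to 0.0638 times in DKO mice.

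*Il10* itself (ENSMUSG00000016529.5, chromosome 1, 131019845 to 131024974, plus strand) was the most variable gene of the set. It was measured at 40.7, 55.5, 63.2 and 133.4 CPM in WT mice 4, 5, 10 and 13. IL10RAKO mice 1, 2, 7 and 8 had 20.9, 82.8, 129.1 and 107.3 CPM, which brackets all WT values but the highest. DKO mice 3, 9, 12 and 14 had 25.3, 75.3, 30.6 and 26.3 CPM, so that 3 of 4 were below every WT mouse. With a biological coefficient of variation of 0.490, the gene was above 77.9% of tested genes in spread, and the highest IL10RAKO mouse had 6.18 times the level of the lowest. The log2 fold change was 0.22 in IL10RAKO against WT (95% interval -0.86 to 1.29, edgeR adjusted p = 0.814) and -0.89 in DKO against WT (95% interval -1.98 to 0.19, edgeR adjusted p = 0.25). Neither passed the test, and with 4 mice a group changes of the ligand inside these intervals remain compatible with the data. The sign of the IL10RAKO value also depended on scaling: it was -0.11 with library totals in place of TMM.

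**Figure D1:**
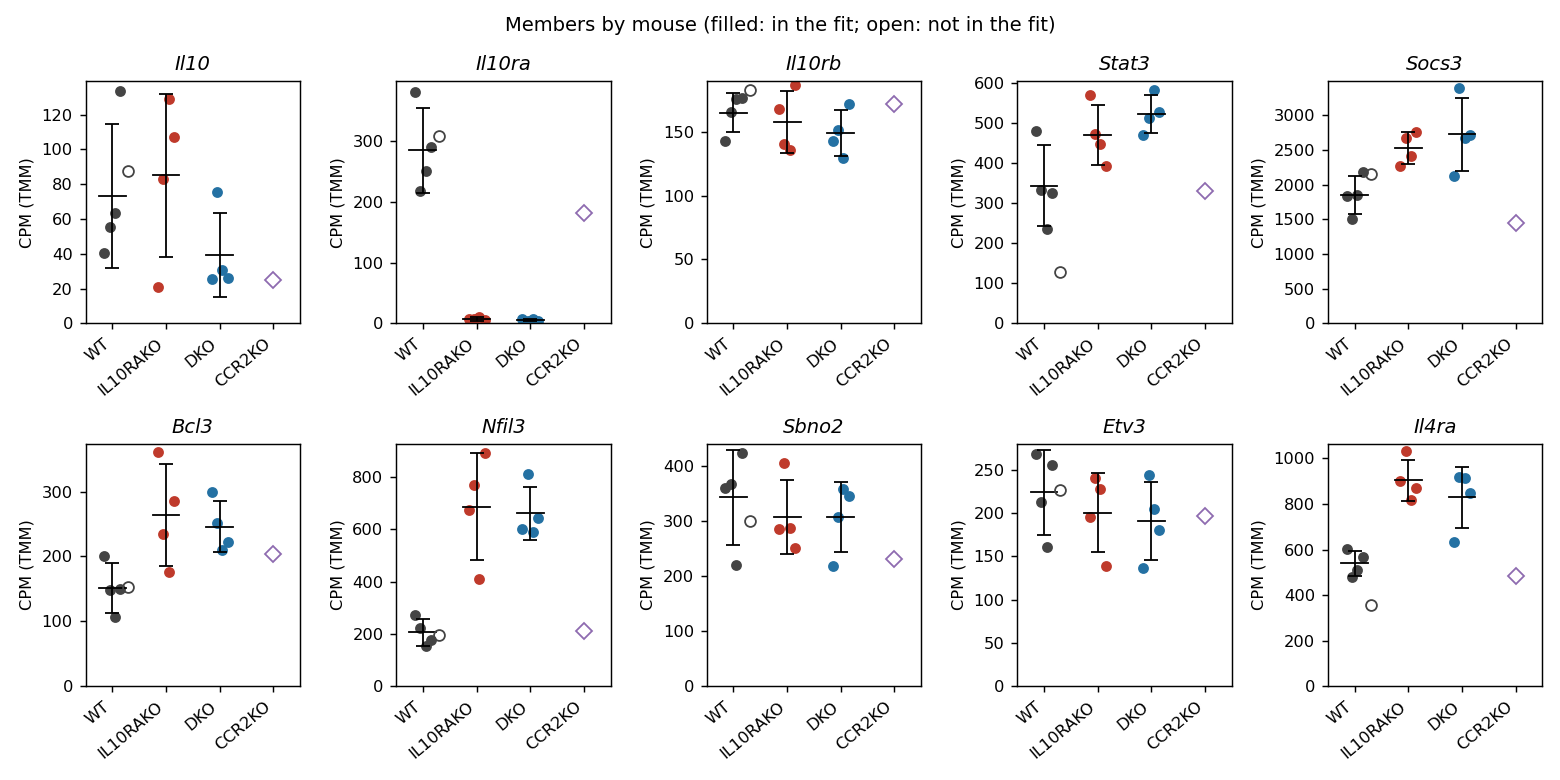
Level of each of the 10 genes in CPM (TMM-scaled; linear axes from 0) by genotype, with a point per mouse, and bars for the mean and SD of the 4 mice in the fit (filled points); open points are WT mouse 11 and the CCR2KO mouse, which were not in the fit. *Il10ra* sat near 0 in the 8 IL10RAKO and DKO mice, *Nfil3* and *Il4ra* were higher in all 8 than in the 4 fitted WT mice, and *Il10rb*, *Sbno2* and *Etv3* overlapped in the 3 groups.

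*Stat3* (ENSMUSG00000004040.16, chromosome 11, 100885098 to 100939540, minus strand) encodes the transcription factor that carries the signal. WT mice 4, 5, 10 and 13 had 480.0, 332.1, 235.9 and 326.5 CPM. IL10RAKO mice 1, 2, 7 and 8 had 569.5, 472.6, 446.5 and 392 CPM, and DKO mice 3, 9, 12 and 14 had 468.8, 512.1, 582.0 and 526.4 CPM. WT mouse 4 was the only WT mouse inside the range of the knockout groups. *Stat3* rose 1.52-fold in DKO (log2 fold change 0.60, SE 0.196, edgeR adjusted p = 0.0458). In IL10RAKO the log2 fold change of 0.45 (95% interval 0.03 to 0.87) did not pass (edgeR adjusted p = 0.141). Both calls turned on single mice. Without WT mouse 4 the IL10RAKO difference passed (log2 fold change 0.66, edgeR adjusted p = 0.0188), and the DKO call was lost without any one of WT mice 5, 10 and 13, IL10RAKO mice 2 and 7, or DKO mice 3, 9, 12 and 14 (edgeR adjusted p = 0.05 to 0.118). It was also lost when WT mouse 11, which had 129.3 CPM, was added to the fit (log2 fold change 0.80, edgeR adjusted p = 0.0662). *Stat5a* overlaps *Stat3* on the opposite strand, and the strand setting of the counting is not given in the sources used here, so reads in the overlap are uncertain.

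Among the 6 induced genes, 3 were higher in IL10RAKO than in WT (*Nfil3*, *Bcl3* and *Il4ra*) and 4 were higher in DKO (the same 3 and *Socs3*), whereas *Sbno2* and *Etv3* passed in neither. Over all 10 genes, 4 passed in IL10RAKO against WT (3 higher, 1 lower), where 15.8% of all tested genes passed (8.70% higher, 7.10% lower), and 6 passed in DKO against WT (5 higher, 1 lower), where 18.5% of all tested genes passed (9.23% higher, 9.22% lower). The median log2 fold change of the 10 genes was 0.335 in IL10RAKO and 0.208 in DKO, beside -0.07 and -0.064 for all tested genes. The ranges of IL10RAKO and WT mice did not overlap for 4 of the 10 genes (3 higher, 1 lower), beside 18.2% of all tested genes (9.45% higher, 8.78% lower), and those of DKO and WT mice for 4 (3 higher, 1 lower), beside 22.2% (11.2% higher, 11.0% lower). Both comparisons use the same 4 WT mice and are not independent. The *Il10ra* row in these counts is the deleted gene itself.

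The DNA just upstream of a gene's start is where STAT3 can act, and the windows below are shown because they differ in the letters that STAT factors bind, TTCNNNGAA, which reads the same on both strands. Windows of 300 bases (250 before and 50 after the start) came from RefSeq (GRCm38.p6) for 7 of the 10 genes, and the motif was found in 3 of their 9 windows, belonging to 2 genes, beside 8.30% of 32851 windows of that length. *Socs3* holds TTCTTAGAA 154 bases before its RefSeq start, and 2 of the 3 RefSeq starts of *Sbno2* hold TTCCCGGAA and TTCGCAGAA 24 and 26 bases before theirs. The GENCODE spans given for *Socs3* and *Sbno2* reach further upstream than these starts, to 117970047 and 80105571. The printed windows of both genes therefore lie inside those spans. No match was found in the windows of *Stat3*, *Bcl3*, *Nfil3*, *Etv3* and *Il4ra* or at the other *Sbno2* start. The 250 bases before the start are printed 5′ to 3′ on the strand of the gene, with the motif in capitals, first for the starts that hold it and then for the 3 induced genes that were higher in both knockout groups and do not. For *Sbno2*, middle and outermost refer to its 3 RefSeq starts only.
Socs3, minus strand, chr11:117969367-117969616: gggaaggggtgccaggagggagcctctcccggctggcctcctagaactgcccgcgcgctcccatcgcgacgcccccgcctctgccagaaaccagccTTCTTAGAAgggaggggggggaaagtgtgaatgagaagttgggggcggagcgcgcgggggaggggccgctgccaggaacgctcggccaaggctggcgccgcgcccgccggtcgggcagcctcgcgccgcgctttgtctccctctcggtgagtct
Sbno2 at a middle start, minus strand, chr10:80101188-80101437: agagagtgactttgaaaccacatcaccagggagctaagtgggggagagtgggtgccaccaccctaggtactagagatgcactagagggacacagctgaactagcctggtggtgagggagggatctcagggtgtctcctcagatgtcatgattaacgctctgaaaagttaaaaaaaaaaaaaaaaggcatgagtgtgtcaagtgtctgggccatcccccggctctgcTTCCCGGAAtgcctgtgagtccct
Sbno2 at the outermost start, minus strand, chr10:80102703-80102952: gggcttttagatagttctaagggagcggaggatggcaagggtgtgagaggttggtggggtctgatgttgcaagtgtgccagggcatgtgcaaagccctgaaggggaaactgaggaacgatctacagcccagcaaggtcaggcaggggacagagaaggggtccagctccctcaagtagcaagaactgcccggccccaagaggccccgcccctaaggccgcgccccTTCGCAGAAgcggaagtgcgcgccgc
Nfil3, minus strand, chr13:52981040-52981289: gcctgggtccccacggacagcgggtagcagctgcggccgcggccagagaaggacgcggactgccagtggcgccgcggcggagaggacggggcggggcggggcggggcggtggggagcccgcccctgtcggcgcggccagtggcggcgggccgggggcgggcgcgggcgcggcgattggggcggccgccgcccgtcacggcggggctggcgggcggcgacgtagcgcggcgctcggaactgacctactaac
Bcl3, minus strand, chr7:19822756-19823005: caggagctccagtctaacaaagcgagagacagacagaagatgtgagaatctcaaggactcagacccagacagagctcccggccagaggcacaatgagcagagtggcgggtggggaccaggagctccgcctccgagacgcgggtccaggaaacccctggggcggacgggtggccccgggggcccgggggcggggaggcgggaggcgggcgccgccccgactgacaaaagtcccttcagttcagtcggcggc
Il4ra, plus strand, chr7:125552021-125552270: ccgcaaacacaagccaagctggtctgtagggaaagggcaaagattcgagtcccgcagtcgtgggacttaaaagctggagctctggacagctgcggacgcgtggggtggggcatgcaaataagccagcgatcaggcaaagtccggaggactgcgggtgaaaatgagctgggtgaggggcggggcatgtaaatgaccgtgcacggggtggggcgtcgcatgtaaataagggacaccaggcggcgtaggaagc
Of the 2 genes with the motif in a window, *Socs3* was higher in DKO and *Sbno2* passed in neither knockout group, and of the induced genes without it *Nfil3*, *Bcl3* and *Il4ra* were higher in both and *Etv3* passed in neither. A match of letters is not a binding site, and a window without a match says nothing of sites elsewhere.

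*Nfil3* (ENSMUSG00000056749.7, chromosome 13, 52967209 to 52981073, minus strand) encodes a basic leucine zipper repressor that in macrophages limits transcription of the shared p40 subunit of IL-12 and IL-23. It was measured at 271.3, 221.7, 154.5 and 177.7 CPM in WT mice 4, 5, 10 and 13. IL10RAKO mice 1, 2, 7 and 8 had 674.4, 769.7, 409.8 and 890.6 CPM, and DKO mice 3, 9, 12 and 14 had 602.1, 810.5, 591.2 and 643.3 CPM. All 8 knockout mice were above all 4 WT mice. *Nfil3* rose 3.33-fold in IL10RAKO (log2 fold change 1.73, SE 0.239, edgeR adjusted p = 0.000206) and 3.21-fold in DKO (log2 fold change 1.68, SE 0.238, edgeR adjusted p = 0.000218). Both calls passed whichever single mouse was left out, with log2 fold changes of 1.59 to 1.92 in IL10RAKO and 1.57 to 1.85 in DKO.

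*Il4ra* (ENSMUSG00000030748.9, chromosome 7, 125552120 to 125579474, plus strand) encodes the chain that binds IL-4 and, with a partner, IL-13. WT mice 4, 5, 10 and 13 had 600.4, 478.9, 510.9 and 565.3 CPM. IL10RAKO mice 1, 2, 7 and 8 had 899.5, 1031, 819.4 and 868.1 CPM, and DKO mice 3, 9, 12 and 14 had 635.2, 919.3, 915.0 and 847.4 CPM. Both knockout groups were above WT without overlap, although DKO mouse 3 lay close to WT mouse 4. *Il4ra* rose 1.68-fold in IL10RAKO (log2 fold change 0.75, SE 0.154, edgeR adjusted p = 0.00419) and 1.54-fold in DKO (log2 fold change 0.62, SE 0.154, edgeR adjusted p = 0.0114), and both calls passed whichever mouse was left out. The spread between mice was small, with a biological coefficient of variation of 0.170. The antisense gene *Gm44876* lies over *Il4ra*, and its reads cannot be told apart without strand.

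*Bcl3* (ENSMUSG00000053175.17, chromosome 7, 19808462 to 19822770, minus strand) encodes an IκB family protein that sits on NF-κB p50 or p52 dimers in the nucleus and restrains *Tnf* in macrophages. WT mice 4, 5, 10 and 13 had 201.3, 147.5, 106.4 and 150.4 CPM. IL10RAKO mice 1, 2, 7 and 8 had 361.2, 234.0, 176.5 and 286.3 CPM, and DKO mice 3, 9, 12 and 14 had 298.8, 251.9, 210.7 and 222.1 CPM. IL10RAKO mouse 7 fell below WT mouse 4, and all 4 DKO mice were above WT. *Bcl3* rose in IL10RAKO (log2 fold change 0.80, SE 0.231, edgeR adjusted p = 0.0288) and 1.62-fold in DKO (log2 fold change 0.70, SE 0.230, edgeR adjusted p = 0.0483). The IL10RAKO call was lost without any one of WT mice 5, 10 and 13 or IL10RAKO mice 1 and 8 (edgeR adjusted p = 0.0633 to 0.102), and the DKO call without any one of WT mice 5, 10 and 13, IL10RAKO mice 2 and 8, or any DKO mouse (edgeR adjusted p = 0.0559 to 0.125). The antisense genes *Gm16174* and *Gm16175* lie over *Bcl3*.

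*Socs3* (ENSMUSG00000053113.3, chromosome 11, 117966079 to 117970047, minus strand), the feedback inhibitor that blocks signalling by the IL-6 receptor chain gp130 and is itself a STAT3 target, was the most abundant gene of the set. WT mice 4, 5, 10 and 13 had 1842, 1510, 1855 and 2181 CPM. IL10RAKO mice 1, 2, 7 and 8 had 2267, 2681, 2409 and 2758 CPM, and DKO mice 3, 9, 12 and 14 had 2122, 3399, 2678 and 2714 CPM. All IL10RAKO mice were above all WT mice, while DKO mouse 3 lay below WT mouse 13. *Socs3* rose 1.48-fold in DKO (log2 fold change 0.56, SE 0.168, edgeR adjusted p = 0.0313). The IL10RAKO log2 fold change was 0.45 (95% interval 0.09 to 0.81) and missed the threshold in edgeR (adjusted p = 0.0861) and passed it in DESeq2 (adjusted p = 0.0428). The DKO call was lost without any one of WT mice 5 and 10 or DKO mice 9, 12 and 14 (edgeR adjusted p = 0.0536 to 0.102). A pass in one knockout group and a miss in the other is no difference between them: for *Socs3* the log2 difference of DKO from IL10RAKO was 0.11 (95% interval -0.25 to 0.47).

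*Sbno2* (ENSMUSG00000035673.10, chromosome 10, 80056992 to 80105571, minus strand), a putative helicase that acts as a corepressor downstream of STAT3, had 360.0, 366.3, 219.3 and 423.4 CPM in WT mice. IL10RAKO mice had 285.4, 404.3, 286.2 and 250.7 CPM, and DKO mice had 218.1, 307.3, 358.0 and 344.7 CPM. The 3 groups overlapped fully, with a log2 fold change of -0.16 in IL10RAKO (95% interval -0.63 to 0.32, edgeR adjusted p = 0.685) and -0.16 in DKO (95% interval -0.63 to 0.32, edgeR adjusted p = 0.682). *Etv3* (ENSMUSG00000003382.18, chromosome 3, 87525407 to 87540156, plus strand), an ETS family repressor, had 268.5, 212.1, 160.1 and 255.6 CPM in WT mice, 195.3, 240.8, 227.3 and 138.6 CPM in IL10RAKO mice, and 135.9, 243.7, 204.2 and 180.4 CPM in DKO mice. Its groups overlapped too, with log2 fold changes of -0.16 (95% interval -0.64 to 0.32, edgeR adjusted p = 0.682) and -0.23 (95% interval -0.71 to 0.25, edgeR adjusted p = 0.519). For both genes the interval covers no change, and a rise of the size seen for *Nfil3* lies outside it.

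**Figure D2:**
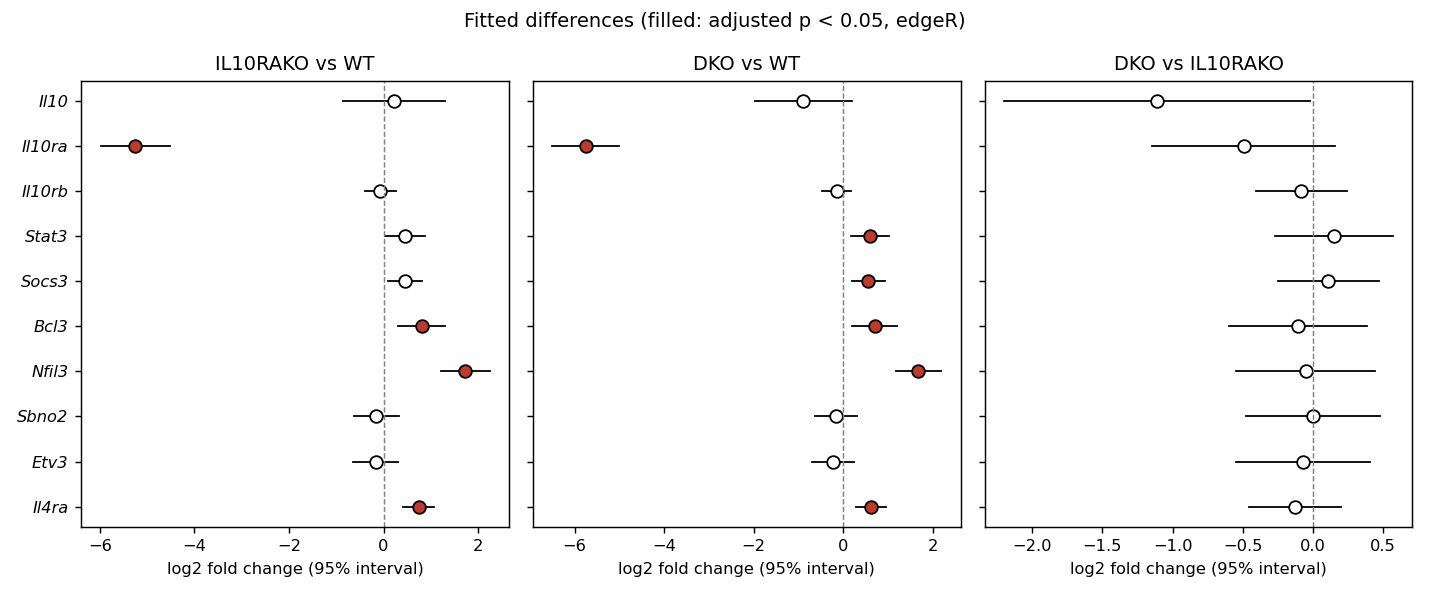
Log2 fold change of the 10 genes in each comparison with its 95% interval (edgeR, 4 mice a group). Filled points have an adjusted p under 0.05, and each panel has a horizontal axis of its own. *Il10ra* was far below 0 in both comparisons with WT, *Nfil3*, *Il4ra* and *Bcl3* were above 0 in both, and no gene passed between DKO and IL10RAKO.

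The added loss of *Ccr2* asks whether the IL-10 receptor pathway reads differently once the chemokine receptor is gone as well. Of the 10 genes, 0 passed between DKO and IL10RAKO in edgeR, where 0.0457% of all tested genes passed (6 genes; 0.0152% higher, 0.0305% lower). The ranges of the 2 groups were apart for 0 of the 10, beside 2.41% of all tested genes (1.13% higher, 1.28% lower). An unadjusted p under 0.05 was found for 1 of the 10, beside 388 of all 13136 tested genes. DESeq2 also called 0 of the 10. The gene under 0.05 unadjusted was *Il10*, with a log2 difference of -1.11 in DKO (95% interval -2.20 to -0.02, edgeR adjusted p = 1). The groups overlapped, since DKO mouse 9 had 75.3 CPM and IL10RAKO mouse 1 had 20.9 CPM. For the induced genes the log2 differences of DKO from IL10RAKO were -0.05 for *Nfil3* (95% interval -0.55 to 0.44) and -0.13 for *Il4ra* (95% interval -0.45 to 0.20). *Stat3* differed by 0.15 (95% interval -0.27 to 0.57). A miss of the threshold does not show that the 2 knockout groups are alike, and differences inside these intervals remain compatible with the data. *Ccr2* itself differed by -6.39 (edgeR adjusted p = 6.55e-09).

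Per kilobase of exon, which allows genes to be compared roughly, *Socs3* led in every genotype and stood apart from the next gene. The length counts all annotated exons of a gene, and the transcripts expressed may be shorter. Its level was 638.8 ± 94.8 CPM per kb in WT (SD, n = 4), 874.7 CPM per kb in IL10RAKO and 943.8 CPM per kb in DKO mice, above 99.7% of the genes in each group. In WT mice *Nfil3* (101.8 CPM per kb), *Il4ra* (89.8), *Il10ra* (81.3), *Bcl3* (61.2), *Il10* (55.9), *Il10rb* (43.3), *Stat3* (36.1), *Sbno2* (31.9) and *Etv3* (21.8) followed, and the ranges of neighbours in that order overlapped throughout. In IL10RAKO mice *Nfil3*, at 338.7 CPM per kb, separated from *Il4ra* (150.7), and *Il10ra*, at 2.12 CPM per kb, fell to the end of the order, below the range of *Etv3* (19.5). In DKO mice the same separations held, with *Nfil3* at 326.6, *Il4ra* at 138.2, *Etv3* at 18.6 and *Il10ra* at 1.52 CPM per kb. *Bcl3* (99.4) also separated from *Stat3* (54.8) there, and *Stat3* from *Il10rb* (39.1). *Il10ra* was the lowest of the 10 in both knockout groups.

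**Figure D3:**
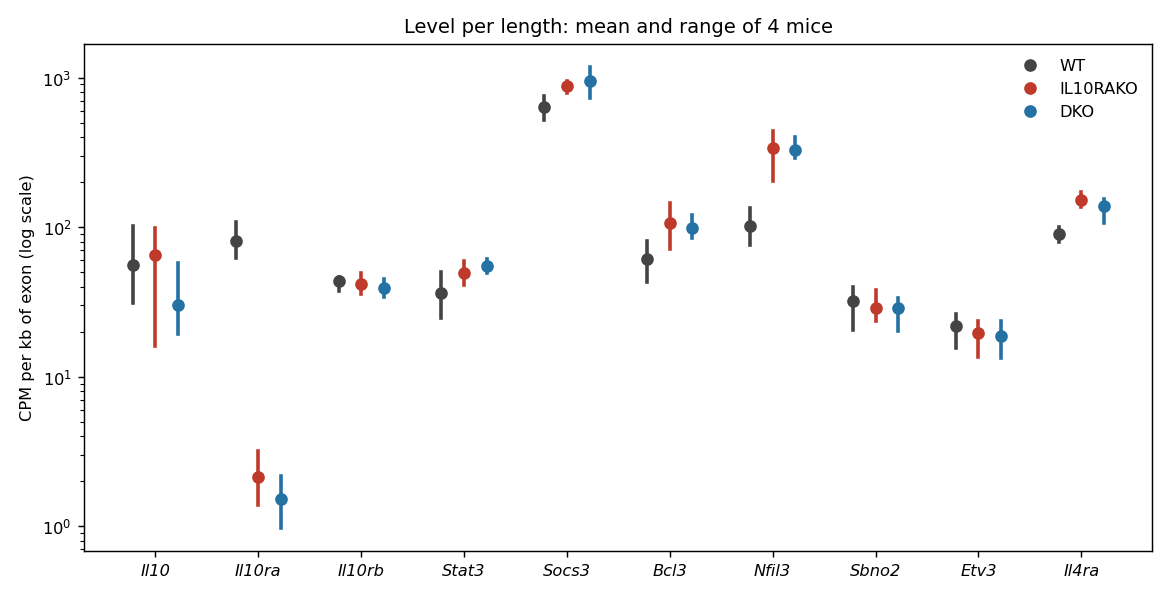
Level per length of the 10 genes in CPM per kilobase of exon (log axis), with points for the mean and lines for the lowest to highest of 4 mice, by genotype. *Socs3* was the highest in every genotype (638.8 CPM per kb in WT), and *Il10ra* dropped from 81.3 CPM per kb in WT to 2.12 in IL10RAKO and 1.52 in DKO mice.

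Of 10 Janus kinases and STAT factors other than STAT3, 2 rose in IL10RAKO and 2 in DKO against WT, and none fell (median log2 fold change 0.21 and 0.25). These shares lie near those of all tested genes that passed, 15.8% and 18.5%. *Jak2*, a kinase of other cytokine receptors, was at 100.9 ± 48.2 CPM in WT, 245.8 ± 39.6 CPM in IL10RAKO and 263.1 ± 51.3 CPM in DKO mice (SD, n = 4 each). It rose by a log2 fold change of 1.28 in IL10RAKO (edgeR adjusted p = 0.00644) and 1.38 in DKO (edgeR adjusted p = 0.00368). The 2 kinases of the IL-10 receptor did not pass: *Jak1* had log2 fold changes of -0.06 and 0.10 and *Tyk2* of 0.04 and 0.19. Of the 11 other cytokines and receptor chains of the IL-10 family, 4 were expressed enough to be tested, and 0 of 4 passed against WT in edgeR. An unadjusted p under 0.05 was found for 1 of 4 in each comparison, beside 3818 (IL10RAKO) and 4107 (DKO) of all 13136 tested genes. In both comparisons 1 of 4 passed with DESeq2, with the bias-adjusted deviance of edgeR, and without WT mouse 5. It was *Il20rb* each time, a chain of the IL-20 and IL-24 receptors named after its values were seen, with 0 to 11 reads per WT, 13 to 39 per IL10RAKO and 11 to 56 per DKO mouse.

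Inhibitors of JAK-STAT signalling other than SOCS3 moved in both directions: 5 of 15 rose and 2 fell in IL10RAKO, and 5 rose and 1 fell in DKO (median log2 fold change 0.29 and 0.201), beside 8.70% higher and 7.10% lower of all tested genes in IL10RAKO and 9.23% and 9.22% in DKO. *Socs1*, which blocks Janus kinases downstream of interferons, was at 15.7 ± 7.04 CPM in WT, 77.5 ± 34.9 CPM in IL10RAKO and 91.7 ± 25.6 CPM in DKO mice, a log2 fold change of 2.30 and 2.54 (edgeR adjusted p = 0.000601 and 0.00025). *Cish*, an inhibitor of STAT5 signalling, rose by 1.97 and 1.71 (edgeR adjusted p = 0.000491 and 0.0012). *Ptpn2*, a phosphatase that acts on Janus kinases, rose by 0.97 and 0.80 (edgeR adjusted p = 0.00157 and 0.00511). *Socs5* fell in both (log2 fold change -1.35 and -1.80, edgeR adjusted p = 0.00968 and 0.00137).

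A further 16 genes that IL-10 or STAT3 is known to induce in macrophages moved in both directions. In IL10RAKO 8 rose and 4 fell, and in DKO 6 rose and 5 fell (median log2 fold change 0.519 and 0.254), where 8.70% of all tested genes rose and 7.10% fell in IL10RAKO, and 9.23% rose and 9.22% fell in DKO. Of the 6 induced genes of the set itself, none fell. *Il1rn*, which encodes the antagonist of the IL-1 receptor, was at 367.6 ± 103.3 CPM in WT, 2970 ± 845.2 CPM in IL10RAKO and 2509 ± 492.2 CPM in DKO mice (log2 fold change 3.01 and 2.77, edgeR adjusted p = 4.18e-06 and 6.97e-06). *Cd163*, the scavenger receptor for haemoglobin, was at 99.7 ± 39.6, 3.88 ± 3.18 and 1.499 ± 0.725 CPM, and fell in both (log2 fold change -4.66 and -6.08, edgeR adjusted p = 4.81e-05 and 8.32e-06). *Maf*, a transcription factor of resident macrophages, fell as well (log2 fold change -1.85 and -2.11, edgeR adjusted p = 0.000437 and 0.000142).

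Other cytokines that signal through STAT3 were higher in knockout mice, while the receptor chains moved both ways. Of 8 tested ligands, 7 rose in IL10RAKO and 6 in DKO, and none fell, where 8.70% and 9.23% of all tested genes rose. *Il21* was listed at 0 in all WT mice, with 1 to 33 reads per IL10RAKO and 3 to 53 per DKO mouse. With that gene at the bound set by 3 reads per library, the median log2 fold change of the ligands was 2.66 and 2.55 (2.92 and 2.55 as fitted). *Il6* was at 9.75 ± 1.10 CPM in WT, 172.4 ± 113.5 CPM in IL10RAKO and 166.0 ± 30.1 CPM in DKO mice (log2 fold change 4.15 and 4.09, edgeR adjusted p = 7.94e-06 and 8.17e-06). *Osm*, which encodes oncostatin M, was at 282.7 ± 63.7, 967.6 ± 397.9 and 929.2 ± 127.0 CPM (log2 fold change 1.77 and 1.72, edgeR adjusted p = 0.000432 and 0.000486). *Il27*, a subunit of IL-27, rose by 2.93 and 2.54 (edgeR adjusted p = 1.4e-05 and 3.98e-05), and *Csf3*, which encodes granulocyte colony-stimulating factor, rose by 4.26 and 3.70 from 0 to 28 reads per WT mouse (edgeR adjusted p = 0.00112 and 0.00235).

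Among 8 tested receptor chains that signal through STAT3, 1 rose and 3 fell in IL10RAKO, and 1 rose and 2 fell in DKO (median log2 fold change -0.537 and -0.708), where 15.8% and 18.5% of all tested genes passed. *Csf3r*, the receptor of granulocyte colony-stimulating factor, rose from 87.3 ± 20.3 CPM in WT to 197.7 ± 44.5 CPM in IL10RAKO and 181.3 ± 39.7 CPM in DKO mice (log2 fold change 1.18 and 1.05, edgeR adjusted p = 0.00219 and 0.0042). *Lifr*, the chain for leukaemia inhibitory factor, fell in both (log2 fold change -1.93 and -2.78, edgeR adjusted p = 2.29e-06 and 1.46e-07), and *Lepr*, the leptin receptor, fell too (log2 fold change -5.16 and -4.41, edgeR adjusted p = 0.000672 and 0.00131). *Osmr*, the oncostatin M receptor, fell in IL10RAKO (log2 fold change -3.67, edgeR adjusted p = 0.023) and had a log2 fold change of -2.50 in DKO (edgeR adjusted p = 0.0804). Both genes had few reads in knockout mice. *Lepr* had 55 to 460 per WT, 0 to 16 per IL10RAKO and 4 to 19 per DKO mouse. *Osmr* had 10 to 99, 0 to 10 and 5 to 16, and its groups overlapped. The sort for CD45+ CD64+ CD11b+ cells should remove stromal cells, and the fibroblast markers given above nevertheless had reads in every group and fell in the same mice as these chains. With the fibroblast covariate given at the end, 0 of the 8 chains passed in IL10RAKO against WT, and 9 of all tested genes did. Beyond that fit, the part of the fibroblast markers in the change of these chains was not tested.

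Genes whose products work with the induced members were followed as well: 3 of 10 tested rose and 2 fell in IL10RAKO, and 4 rose and 3 fell in DKO (median log2 fold change 0.25 and 0.261), beside 15.8% and 18.5% of all tested genes that passed. The partner chains of IL4RA moved with it. *Il2rg*, the common gamma chain, was at 315.7 ± 96.9 CPM in WT, 725.9 ± 181.6 CPM in IL10RAKO and 819.2 ± 130.5 CPM in DKO mice (log2 fold change 1.201 and 1.38, edgeR adjusted p = 0.00251 and 0.000835). *Il13ra1* rose by 1.01 and 1.04 (edgeR adjusted p = 0.00301 and 0.00213), while *Il4* and *Il13* had too few reads to be tested. *Nfkb2*, whose p52 product binds BCL3, rose by 0.83 and 0.84 (edgeR adjusted p = 0.00711 and 0.00602). *Dbp*, a leucine zipper activator that competes with NFIL3 for the same DNA sites, fell in both (log2 fold change -1.44 and -1.44, edgeR adjusted p = 0.00462 and 0.00428).

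**Figure D4:**
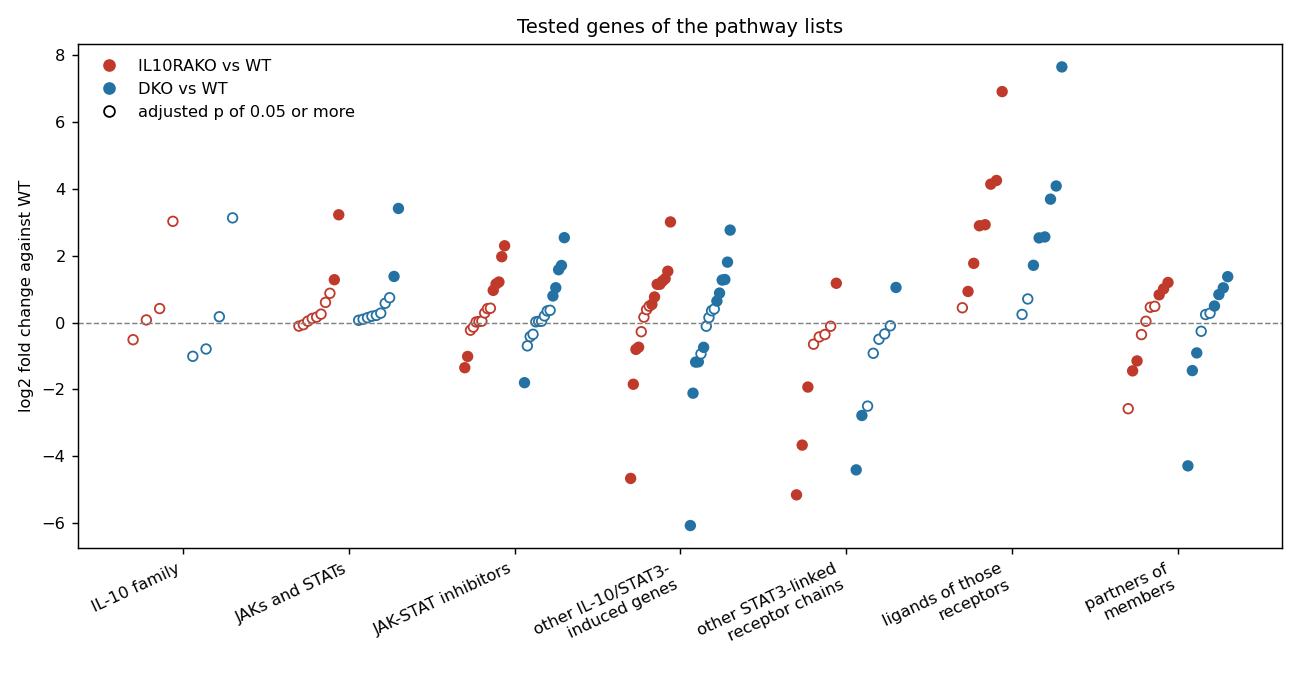
Log2 fold change against WT of every tested gene in the 7 lists around the pathway, with a point per gene, IL10RAKO and DKO side by side, and filled points for an edgeR adjusted p under 0.05. The ligands of other STAT3-linked receptors were the only list without a point below 0 in IL10RAKO, and 7 of 8 passed there, whereas the receptor chains had 3 of 8 lower and 1 of 8 higher.

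Across the 12 libraries, the genes whose log2 level was most like that of a member differed from member to member. The highest Pearson r of *Nfil3* was with *Osm* (0.989), *Cish* (0.984) and *Gpr35* (0.983). *Il10ra* was followed most closely by *Phlda3* (0.987), *Ednrb* (0.979) and *F13a1* (0.976). The nearest genes to *Bcl3* were *Eif6* (0.981), *Ptpn1* (0.968) and *Snx15* (0.967), those to *Il4ra* were *Snx18* (0.958), *Stk40* (0.958) and *Ell2* (0.954), and those to *Stat3* were *Nab1* (0.946), *Chsy1* (0.944) and *Nfkb2* (0.943). *Socs3* had *Comtd1* (0.928), *Kcnj2* (0.928) and *Ets2* (0.927). Genes that did not follow genotype had looser neighbours: *Il10* had *Ier5* (0.891), *Ccl3* (0.884) and *Plau* (0.883), *Il10rb* had *Ncbp2* (0.917), *Nxt2* (0.881) and *Acer3* (0.881), *Etv3* had *Ahr* (0.906), *Eml3* (0.892) and *Syne3* (0.88), and *Sbno2* had *Zbed6* (0.875), *Cox4i2* (0.871) and *Dvl3* (0.857). The libraries share genotype, so these are descriptions over 12 points and carry no test.

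Some of the smaller rises depended on the scaling and the filter. With library totals in place of TMM, *Bcl3* no longer passed in IL10RAKO (edgeR adjusted p = 0.12), and *Bcl3* (0.151), *Socs3* (0.152), *Stat3* (0.198) and *Il4ra* (0.0794) no longer passed in DKO. With 10 counts required in every library, *Bcl3* (0.0517), *Socs3* (0.056) and *Stat3* (0.0553) missed the threshold in DKO. In fits of only the 2 genotypes compared, *Bcl3* missed it in IL10RAKO (edgeR adjusted p = 0.061) and *Stat3* in DKO (0.0594). *Nfil3* passed in all of these.

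The fibroblast markers and the genotype are hard to separate in these mice. The mean log2 level of the 6 fibroblast markers, with 2 CPM added, was used as a covariate. With it, 1 of the 10 genes passed in each comparison with WT (*Il10ra*), and 9 of all 13136 tested genes did in each. The log2 fold change of *Nfil3* was then 1.17 in IL10RAKO and 1.13 in DKO, and that of *Il4ra* was 0.81 and 0.68. Each stayed above 0 and neither passed (edgeR adjusted p = 1 and 0.814 for *Nfil3*, 1 and 0.872 for *Il4ra*).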

How the data were processed

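Cells were sorted as CD45+ Ly6G- CD103- CD64+ CD11b+ MHCII+ Ly6C-, and paired-end libraries were made from SmartSeq v4 cDNA. The authors used STAR for alignment to mm10 and for counting, and deposited whole-number counts per gene that were not normalized; the submitters' processing notes name STAR 2.5.1b, bcl2fastq 2.20 and edgeR 3.34.0. The annotation and the strand and multimapping settings are not given in the sources used here. A deposited table of edgeR pseudocounts was not used, except that its 12 libraries set those compared here; WT mouse 11 and CCR2KO mouse 6 are not in it. All 14 count columns were mapped to a sample (0 unmapped).

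Low genes were removed by filterByExpr with a minimum count of 10, and genotypes were tested by quasi-likelihood in edgeR 4.0.16 (limma 3.58.1, R 4.3.3), with TMM scaling, 1 fit of 12 libraries and Benjamini-Hochberg adjustment over 13136 genes (threshold 0.05). DESeq2 1.42.0, other scalings and filters, 13 libraries, a fibroblast covariate and leaving out each mouse were alternatives. The fit was tested on simulated data. No 2 libraries of a genotype agreed within sampling noise. Each library is 1 mouse; the labels give no litter, sex or batch. Positions and exon lengths come from GENCODE vM21 (GRCm38), with each length being the union of all annotated exons of the gene. Correlations used log2 CPM with a prior count of 2. Reads are not counted by molecule, so the 3-read floor covers counting error only. Python 3.11.15 with matplotlib 3.10.9 drew the figures, from tables made with pandas 2.3.3.

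The members and lists were chosen with earlier results of these data known. The text names the 10 members, *Ccr2*, up to 4 genes of each list with the smallest adjusted p under 0.05 against WT, any listed gene that passed between DKO and IL10RAKO, marker genes, and the 3 genes most correlated with each member; other genes were named after their values were seen. Of the listed genes that this rule names, 2 are counted but not reported here.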

Additional observations from a re-analysis of the deposited data

Results flagged for a closer look

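*Il10* in DKO mouse 9 was measured at 75.3 CPM, while the other 3 DKO mice had 25.3 to 30.6 CPM. The gap to the nearest mouse was 0.893 of the whole range of the group, above Dixon's 95% critical value for 4 samples. Of 40 groups of values examined, 1 was marked. Chance alone marks about 1 in 20 of the groups that hold 4 mice.

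*Bcl3* in the CCR2KO mouse, which entered no comparison, was measured at 203.3 CPM, just above the WT range of 106.4 to 201.3 CPM. With 1 mouse this has no replicate check.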

How the results depend on the processing

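Of 21 alternatives, 12 left out a mouse and 9 changed a tool, filter, scaling or model. The number of the 10 genes that passed in IL10RAKO against WT was 4, between 3 and 5 when a mouse was left out, and 1 with the fibroblast covariate. In DKO against WT it was 6, between 3 and 6 when a mouse was left out, 3 when 10 counts were required in every library, 2 with library totals in place of TMM, and 1 with the fibroblast covariate. The value of 3 was reached without WT mouse 5, WT mouse 10 or DKO mouse 9, 12 or 14. Between DKO and IL10RAKO it was 0 throughout. *Il10ra* passed against WT in 21 of 21 alternatives in both comparisons, *Nfil3* in 20 and 20, *Il4ra* in 20 and 19, *Bcl3* in 13 and 9, *Socs3* in 1 and 13 and *Stat3* in 1 and 7. Library totals moved the median log2 fold change of all genes from -0.07 to -0.385 in IL10RAKO and from -0.064 to -0.317 in DKO; *Bcl3*, at 0.49 and 0.45 there, and *Stat3*, at 0.15 and 0.36, stayed above that median.

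Signs turned only for values that had not passed in the comparison at hand. With the fibroblast covariate the log2 fold change in IL10RAKO was -1.32 for *Il10*, 0.24 for *Il10rb*, 0.75 for *Sbno2* and 0.039 for *Etv3*, in DKO it was 0.15 for *Il10rb* and 0.72 for *Sbno2*, and between DKO and IL10RAKO it was -0.028 for *Sbno2*, 0.006 for *Il6* and -0.0097 for *Dbp*. With library totals it was -0.11 for *Il10* in IL10RAKO and, between DKO and IL10RAKO, 0.021 for *Nfil3*, 0.0205 for *Il6* and 0.023 for *Osm*. With the bias-adjusted deviance of edgeR 4, *Dbp* was at -0.0031 in the last comparison. When a mouse was left out, the IL10RAKO against WT value ranged from -0.052 to 0.68 for *Il10* and from -0.15 to 0.0048 for *Il10rb*. Between DKO and IL10RAKO it ranged from -0.16 to 0.0098 for *Il10rb*, -0.013 to 0.21 for *Socs3*, -0.24 to 0.084 for *Bcl3*, -0.22 to 0.099 for *Nfil3*, -0.083 to 0.16 for *Sbno2*, -0.21 to 0.063 for *Etv3*, -0.26 to 0.0019 for *Csf3r*, -0.29 to 0.45 for *Il6*, -0.25 to 0.21 for *Osm*, -0.096 to 0.12 for *Il13ra1*, -0.12 to 0.28 for *Dbp* and -0.071 to 0.082 for *Nfkb2*. The causes were not tested. Over all genes named, 1861 of 2006 values kept direction and side of the threshold, 94 lost the call, 6 gained it and 45 turned sign.

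No paired analysis was possible because the groups hold different mice and the labels give them no shared replicate number, litter or day. With 4 mice a group, the intervals of uncalled genes span the sizes given in the text.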

Other observations

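The CCR2KO mouse had an intact *Il10ra* gene by label and 181.9 CPM of it (3684 reads), below the WT range of 217.0 to 379.6 CPM and far above the 4.89 to 11.2 CPM of IL10RAKO mice. Its *Nfil3* was at 210.9 CPM and its *Il4ra* at 482.5 CPM, both inside the WT range, and its *Socs3* was at 1451 CPM, below the lowest WT mouse at 1510 CPM. Its *Il10* was at 24.7 CPM, below all WT mice and close to the 25.3, 30.6 and 26.3 CPM of DKO mice 3, 12 and 14. DKO mouse 9, however, had 75.3 CPM of *Il10*, and IL10RAKO mouse 1, with *Ccr2* at 627.2 CPM, had 20.9 CPM. *Ccr2* was at 4.30 CPM in the CCR2KO mouse. Its fibroblast markers summed to 681.1 CPM, above every WT mouse. These are values of a single mouse.

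WT mouse 11, which was left out of the comparisons, had *Nfil3* at 197.0 CPM and *Il10ra* at 307.5 CPM, inside the range of the other WT mice. Its *Stat3* was at 129.3 CPM and its *Il4ra* at 356.6 CPM, both below every other mouse of the series. Its library was the smallest, with 12153000 counted reads, and its epithelial markers summed to 2425 CPM, beside 42.9 to 946.4 CPM in the other WT mice.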
